A study of Mus musculus with 9 samples.

Results

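Receptors for interleukins 1, 6, 12 and 18 were followed in mouse CD4 T cells of 3 kinds. The set held 9 genes chosen by symbol, Il1r1, Il1r2, Il1rl1, Il6ra, Il6st, Il12rb1, Il12rb2, Il18r1 and Il18rap. They were chosen with earlier results of these data known, so counts among them are no independent test against all genes. Of the 9 genes, 8 were measured, by 14 of the 45037 probe sets tested. Il1rl1, which encodes the IL33 receptor, was not analysed here. The 8 genes are part of 18193 genes that had a probe set, and the probe set with the highest mean over the arrays stood for each gene. Probe sets whose name ends in _x_at were used only for genes that had no other.

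RNA from 9 samples was read on whole-genome Affymetrix arrays, 3 biological replicates in each group. The cells came from mice on the C57BL/6 background in which EGFP reports Foxp3, a transcription factor gene that marks regulatory T cells. The purTGFβ_iTreg group (purified TGFβ) was spleen CD4 T cells without the reporter signal. They were stimulated over 72 hours by 2.5 µg/ml of anti-CD3 and 1 µg/ml of anti-CD28, in 10% serum with 100 U/ml of IL2 and 5 ng/ml of purified TGFβ1. The pltTGFβ_iTreg group (platelet TGFβ) had the same culture, with TGFβ supplied by a freeze and thaw lysate of platelets from wild type C57BL/6 mice. Such a lysate carries other platelet proteins as well. Tconv is the label of the reference group, conventional T cells. By the treatment text, which is the same for the 9 samples, TGFβ1 was given to Tconv as well, so their culture is not settled. The labels also do not say whether iTreg cultures were sorted before RNA was taken. The comparisons ask how the receptors stand in each kind of induced regulatory T cell (iTreg) against Tconv, and whether the source of TGFβ matters.

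These receptors decide which inflammatory cytokines a T cell can hear. Il1r1 and Il18r1 encode the ligand-binding chains of the IL1 and IL18 receptors, which signal through the adaptor MyD88 to NF-κB after joining an accessory chain (Il1rap, Il18rap), whereas Il1r2 encodes a decoy that binds IL1 without signaling. IL6 binds the chain encoded by Il6ra, and the signal runs through gp130, encoded by Il6st, to STAT3. IL12 uses the chains encoded by Il12rb1, shared with the IL23 receptor, and Il12rb2, and signals through JAK2 and TYK2 to STAT4. IL12 and IL18 together are known as strong inducers of interferon gamma in T cells, and IL6 with TGFβ is known to steer them to the Th17 fate.

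Promoter sequence is shown for the genes of the IL18 receptor and of the inducible IL12 chain, because Il18r1 had the largest rise of the 8 genes against Tconv and Il12rb2 the largest difference between the iTreg groups; Il18rap is shown as the partner chain of Il18r1. Sequences are RefSeq's, build GRCm38.p6, written in the direction of the gene, and 8 of the 9 receptor genes matched in the promoter table. Shown are the bases before the annotated start that lie outside every annotated protein-coding gene, 133 for Il18r1 (chr1:40465419-40465551, plus strand), 250 for Il18rap (chr1:40515112-40515361, plus strand) and 145 for Il12rb2 (chr6:67376294-67376438, minus strand). Capitals mark the palindromic STAT motif TTCNNNGAA.
Il18r1: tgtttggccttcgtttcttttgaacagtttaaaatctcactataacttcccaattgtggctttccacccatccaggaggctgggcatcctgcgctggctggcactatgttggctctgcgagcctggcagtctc
Il18rap: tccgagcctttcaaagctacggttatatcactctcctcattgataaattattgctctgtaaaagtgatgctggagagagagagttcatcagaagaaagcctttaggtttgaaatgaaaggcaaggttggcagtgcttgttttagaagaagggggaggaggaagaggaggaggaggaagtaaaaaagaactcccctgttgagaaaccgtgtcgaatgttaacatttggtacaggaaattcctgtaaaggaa
Il12rb2: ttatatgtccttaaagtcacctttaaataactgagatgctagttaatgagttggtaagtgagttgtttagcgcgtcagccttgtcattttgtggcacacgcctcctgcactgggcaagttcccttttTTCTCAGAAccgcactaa

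The 4 motifs searched on both strands of the 250 bases before each start were the STAT motif TTCNNNGAA, the T-box motif AGGTGTGA, the AP-1 motif TGANTCA and the SMAD palindrome GTCTAGAC. They occur in 7.02%, 1.12%, 6.75% and 0.167% of the 32851 windows of the table, and many genes have several windows. Among the 12 windows of the receptor genes only the STAT motif was matched, at 4 places. In Il12rb2 it lies 123 to 115 bases before the annotated start. The Il12rb2 bases shown stop short of that start, as the rest of the 250 lies inside an annotated protein-coding gene. A further Il18r1 window, inside the gene at a later annotated start, holds 2 matches, shown with 10 bases on each side at chr1:40465777-40465805 and chr1:40465844-40465872, both on the plus strand.
Il18r1 first site: tcggggttagTTCTGGGAActgtggagct
Il18r1 second site: agtacaggtcTTCCCAGAActgaaagctt
The remaining match was in Il1r2. A match describes letters only, and binding was not measured.

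Replicate arrays correlated at 0.994 to 0.998 over probe sets, and arrays of Tconv and iTreg at 0.956 to 0.970. The T cell list had 7 of 8 genes measured, and their mean log2 level was 10.3 to 10.6 on every array. Of these, Cd4 (-0.72 and -0.62) and Cd5 (-0.84 and -0.59) were called lower than Tconv with purified and platelet TGFβ, and Cd2 (0.52) and Cd28 (0.78) higher with platelet TGFβ. Foxp3, the defining factor of the iTreg label, read 3.66 to 3.88 in Tconv. Its range was 3.68 to 3.84 for purified TGFβ arrays and 3.84 to 3.90 for platelet ones. Foxp3 was not called in any comparison. With no detection calls to go by, signals this low may be background only. The arrays therefore do not bear out the iTreg label by Foxp3 RNA, and they cannot speak against it either. Xist, expressed from the silenced X chromosome of females, read 10.63 to 10.94 on Tconv arrays and 3.37 to 3.99 on iTreg arrays, and Y-linked Eif2s3y read 2.59 to 2.82 and 8.82 to 9.18. The sex of the animals and the Tconv against iTreg difference therefore cannot be told apart, for every comparison with Tconv given here. In RNA pooled over many cells, fewer cells that express a receptor and less RNA per cell cannot be told apart either.

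With purified TGFβ, 3 of 8 receptor genes were called higher than in Tconv (Il6ra, Il6st, Il18r1) and 1 lower (Il12rb1). A call required an adjusted p under 0.1 in limma, a linear model with variances shared across probe sets, and a log2 change beyond 0.5 in size, about 1.4-fold. Over all genes 14.5% were called higher and 14.9% lower (29.3% either way), and the share of higher among called genes was 49.3%, 38.6% after quantile normalization and 56.5% with array medians centred. With platelet TGFβ, 4 receptor genes were called higher than in Tconv (Il6ra, Il12rb2, Il18r1, Il18rap) and Il12rb1 was again lower, against 13.9% of all genes higher and 14.7% lower (28.5% either way; of these 48.5% were higher, 38.4% after quantile normalization and 55.3% with centred medians). Both comparisons use the same Tconv arrays. With purified TGFβ the arrays of 3 receptor genes lay wholly above and of 2 wholly below Tconv, where 21.1% and 41.6% of all genes did. With platelet TGFβ these were 4 and 2 receptor genes, against 20.7% and 38.4%. The median log2 change of the 8 genes was 0.0050 with purified and 0.49 with platelet TGFβ, where the median over all genes was -0.17 and -0.16.

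**Figure D1:**
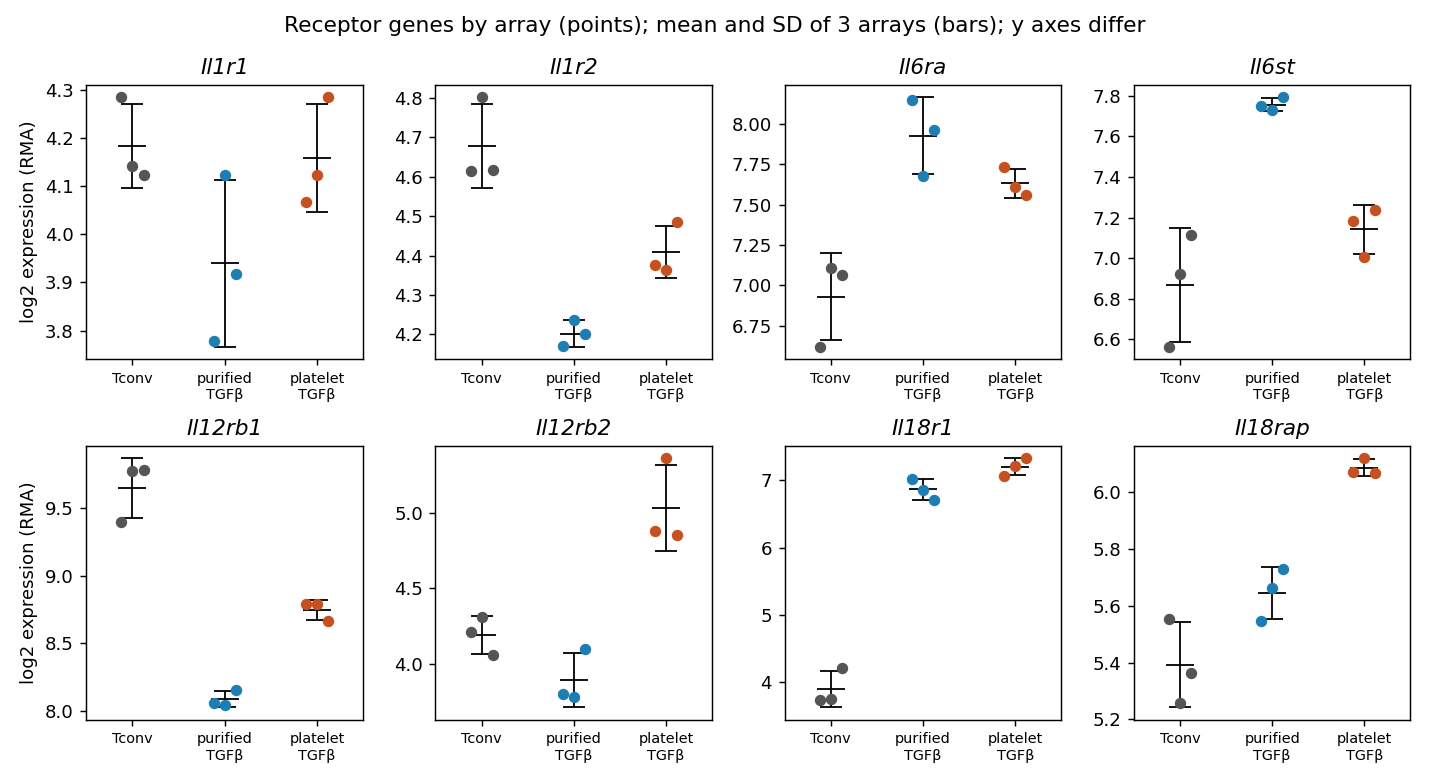
RMA log2 expression of the 8 measured receptor genes on each of the 9 arrays (points) by group, with mean and SD of 3 arrays as bars and a separate y axis for each gene. Il18r1 sits at 3.73 to 4.20 on Tconv arrays and 6.71 to 7.33 on iTreg arrays, and only the platelet TGFβ arrays of Il12rb2 reach 4.85 or more.

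Between the iTreg groups the IL12 receptor chains stood higher and the IL6 signal chain lower with platelet lysate. Il12rb1 and Il12rb2 were called higher and Il6st lower, 3 of 8 genes, where 1.54% of all genes were called higher and 2.57% lower (4.11% either way). The 8 genes were chosen with earlier results of these data known, so this share is no independent test. The arrays of 5 receptor genes lay wholly higher with platelet TGFβ and of 1 wholly lower, against 13.6% and 14.6% of all genes. The median of the 8 log2 differences was 0.28, and that of all genes 0.01. This comparison shares no Tconv array, and Xist and Eif2s3y differed by 0.32 and -0.06 on the log2 scale without being called.

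The IL18 receptor had the largest change. Il18r1 read 3.73, 3.74 and 4.20 on the log2 scale on the Tconv arrays, 7.02, 6.86 and 6.71 with purified TGFβ, and 7.07, 7.21 and 7.33 with platelet TGFβ. Every iTreg array lay far above every Tconv array, and the platelet arrays lay just above the purified ones. Il18r1, the chain that binds IL18, rose 7.86-fold with purified TGFβ (log2 change 2.97 ± 0.13, SE, adjusted p = 1.32e-08) and 9.93-fold with platelet TGFβ (3.31 ± 0.13, adjusted p = 9.41e-09). The deposited values hold no detection calls, so whether the Tconv level of Il18r1 was above background was not settled, and these folds are over a level that may be background. The iTreg groups differed by 0.34 (95% interval 0.04 to 0.63, adjusted p = 0.234), which was not called.

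Il18rap encodes the accessory chain that the IL18 receptor needs to signal. It read 5.55, 5.26 and 5.36 in Tconv, 5.55, 5.66 and 5.73 with purified TGFβ, and 6.07, 6.12 and 6.07 with platelet TGFβ. The platelet arrays stood clear of all others, while purified TGFβ and Tconv overlapped. Against Tconv it rose 1.62-fold with platelet TGFβ (log2 change 0.70 ± 0.09, adjusted p = 7.56e-05) but was not called with purified TGFβ (0.25 ± 0.09, adjusted p = 0.0408), where the size fell short of the cutoff. Platelet against purified TGFβ gave 0.44 ± 0.09 (adjusted p = 0.0153), again short of the cutoff in size. Its other probe set, at 4.91 ± 0.29 (SD, n = 3) in Tconv, 4.91 ± 0.17 with purified and 5.88 ± 0.20 with platelet TGFβ, was called higher between the iTreg groups at 0.96 ± 0.15 (SE, adjusted p = 0.00266). CD8 and NK cells also bear this receptor. Of 5 such markers measured, Klrd1, an NK receptor gene, was higher than in Tconv by 3.17 with purified and 1.90 with platelet TGFβ, Cd8b1 was lower by -0.98 and -1.04, and Cd8a, Ncr1 and Klra8 were not called. The summed linear level of these markers was 159 to 183 in Tconv, 224 to 278 with purified and 144 to 168 with platelet TGFβ. The part of such cells in the Il18r1 rise was not tested.

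Neither IL1 receptor gene was called in any comparison. Il1r1, the signaling receptor, read 4.12 to 4.28 in Tconv, 3.78 to 4.12 with purified and 4.07 to 4.28 with platelet TGFβ, and the groups overlapped. Its log2 changes against Tconv were -0.24 (95% interval -0.47 to -0.02) and -0.03 (-0.25 to 0.20), and neither was called. The other Il1r1 probe set read 2.28 to 2.42 on all arrays. Without detection calls, whether Il1r1, Il1r2 or Il12rb2 was above background on a given array was not settled either.

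Il1r2, the decoy, read 4.62, 4.80 and 4.62 in Tconv, 4.17, 4.24 and 4.20 with purified TGFβ, and 4.38, 4.36 and 4.48 with platelet TGFβ. The groups did not overlap, with Tconv highest and purified TGFβ lowest. The differences from Tconv were small, -0.48 ± 0.08 (adjusted p = 5.49e-04) and -0.27 ± 0.08 (adjusted p = 0.0190), both inside the fold cutoff, and that between the iTreg groups, 0.21 ± 0.08, had an adjusted p of 0.235. Without Tconv replicate 1 or without Tconv replicate 3, Il1r2 was called lower with purified TGFβ at -0.51, which made 2 receptor genes lower in place of 1.

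**Figure D2:**
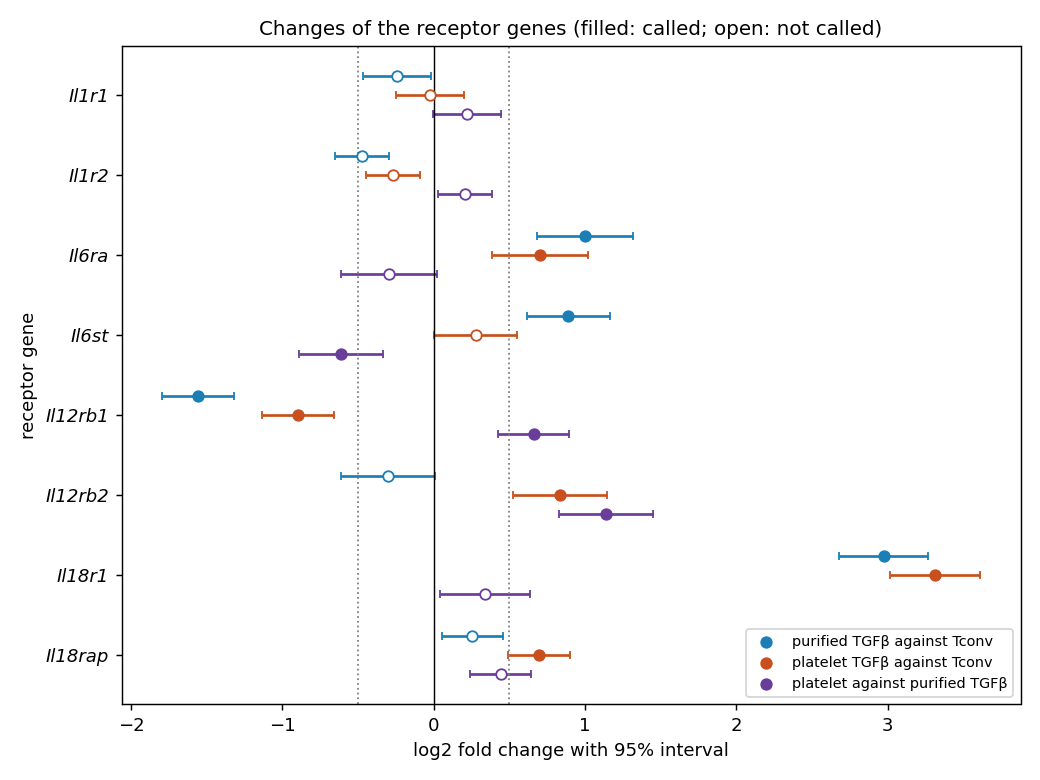
Log2 fold changes of the 8 receptor genes in 3 comparisons with 95% intervals from limma; filled points were called, open points were not, and dotted lines mark the fold cutoff. Il18r1 lies at 2.97 and 3.31 against Tconv, and Il12rb1 and Il12rb2 lie to the right, Il6st to the left, between the iTreg groups.

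Il12rb1, the chain that the IL12 and IL23 receptors share, was highest in Tconv. It read 9.39, 9.77 and 9.78 there, 8.06, 8.05 and 8.16 with purified TGFβ, and 8.79, 8.79 and 8.66 with platelet TGFβ. The 3 groups did not overlap, and the platelet arrays lay between the others. It was 2.94-fold lower than in Tconv with purified TGFβ (log2 change -1.56 ± 0.11, adjusted p = 3.26e-07) and 1.86-fold lower with platelet TGFβ (-0.90 ± 0.11, adjusted p = 3.29e-05). Platelet stood above purified TGFβ by 0.66 ± 0.11 (1.58-fold, adjusted p = 0.00331).

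Il12rb2, the inducible chain that confers the IL12 response, had another order. It read 4.21, 4.31 and 4.06 in Tconv, 3.80, 3.78 and 4.10 with purified TGFβ, and 4.88, 5.36 and 4.85 with platelet TGFβ. Only the platelet arrays stood apart; Tconv and purified TGFβ overlapped (-0.30 ± 0.14, adjusted p = 0.0994, not called). It rose 1.78-fold against Tconv with platelet TGFβ (0.84 ± 0.14, adjusted p = 4.95e-04), and platelet exceeded purified TGFβ 2.20-fold (1.14 ± 0.14, adjusted p = 5.30e-04). Without detection calls, the Il12rb2 folds are over levels that may be background. Il12rb1 and Il12rb2 each had a single probe set.

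Both IL6 receptor genes were called higher than in Tconv with purified TGFβ, and Il6ra also with platelet TGFβ. Il6ra, which encodes the IL6-binding chain, read 6.62, 7.11 and 7.06 in Tconv, 8.15, 7.68 and 7.96 with purified TGFβ, and 7.73, 7.61 and 7.56 with platelet TGFβ. All iTreg arrays lay above all Tconv arrays, and the iTreg groups overlapped. Il6ra rose 2.00-fold with purified TGFβ (log2 change 1.00 ± 0.14, adjusted p = 1.42e-04) and 1.63-fold with platelet TGFβ (0.70 ± 0.14, adjusted p = 0.00191), and the iTreg groups differed by -0.29 (95% interval -0.61 to 0.02, adjusted p = 0.375). The rise with platelet TGFβ fell to 0.48 under quantile normalization and was no longer called. The other Il6ra probe set was called at 0.56 with purified TGFβ but not with platelet TGFβ, at 0.28.

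Il6st encodes gp130, the signal chain of the whole IL6 family. It read 6.57, 6.92 and 7.11 in Tconv, 7.75, 7.73 and 7.79 with purified TGFβ, and 7.18, 7.01 and 7.24 with platelet TGFβ. The purified arrays were above all others, and platelet TGFβ overlapped Tconv. Il6st rose 1.85-fold with purified TGFβ (0.89 ± 0.13, adjusted p = 1.20e-04), changed by 0.28 ± 0.13 with platelet TGFβ (adjusted p = 0.0949, not called), and was 1.53-fold lower with platelet than with purified TGFβ (-0.61 ± 0.13, adjusted p = 0.0137). Its 3 other probe sets differed between the iTreg groups by -0.37, -0.59 and -0.65, and those at -0.59 and -0.65 were called. One of them was also called higher than Tconv with platelet TGFβ, at 0.98 ± 0.14 (adjusted p = 1.24e-04), where the main probe set was not. With purified TGFβ against Tconv, the 3 other probe sets gave 0.29, not called, and 1.57 and 1.13, called.

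**Figure D3:**
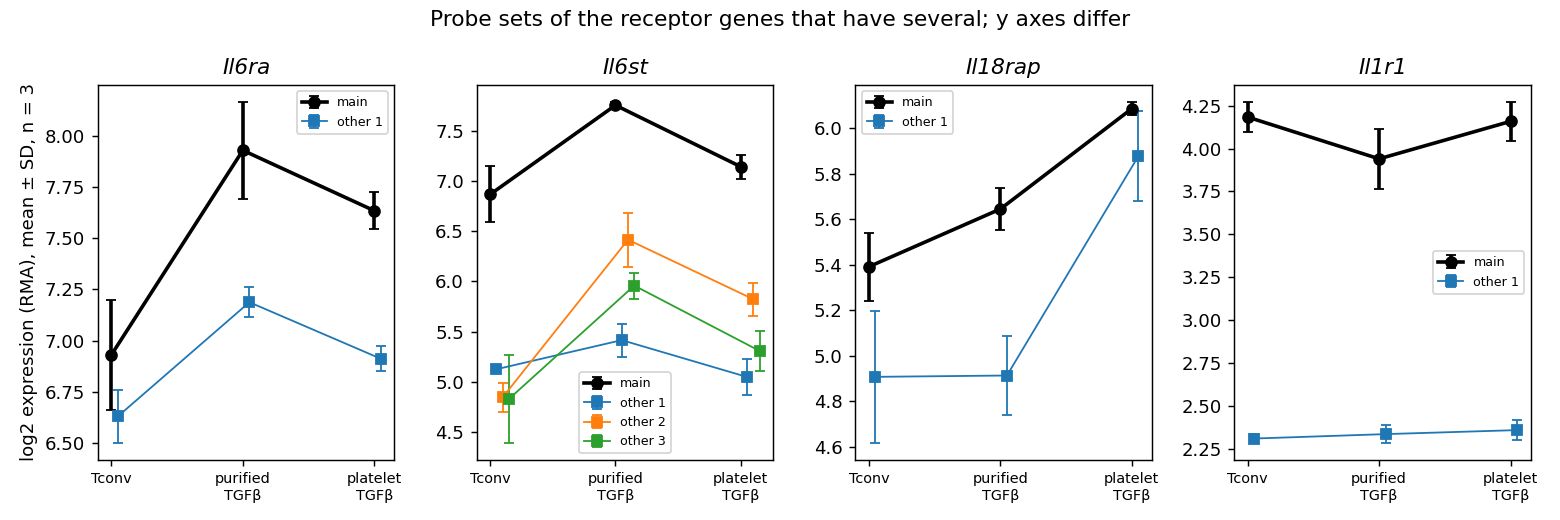
Mean ± SD of log2 expression (n = 3 arrays) in each group for every probe set of the 4 receptor genes that have several; lines join values of 1 probe set and are no time course. All 4 Il6st probe sets are higher with purified than with platelet TGFβ, and both Il18rap probe sets are highest with platelet TGFβ.

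5 of the 9 receptor genes neighbour each other on chromosome 1 in the RefSeq table, in the order Il1r2, Il1r1, Il1rl1, Il18r1 and Il18rap, with Il1rl2, the IL36 receptor gene, between Il1r1 and Il1rl1. Neighbours did not share 1 pattern. Il18r1 rose in both iTreg groups and Il18rap with platelet TGFβ, while Il1rl2 changed by -0.25 and -0.15 against Tconv without a call. Of the 3 named protein-coding genes on each side, Creg2, Rfx8, Map4k4, Slc9a4, Slc9a2 and Mfsd9, only the kinase gene Map4k4 was called, higher in iTreg by 0.87 and 0.67.

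**Figure D4:**
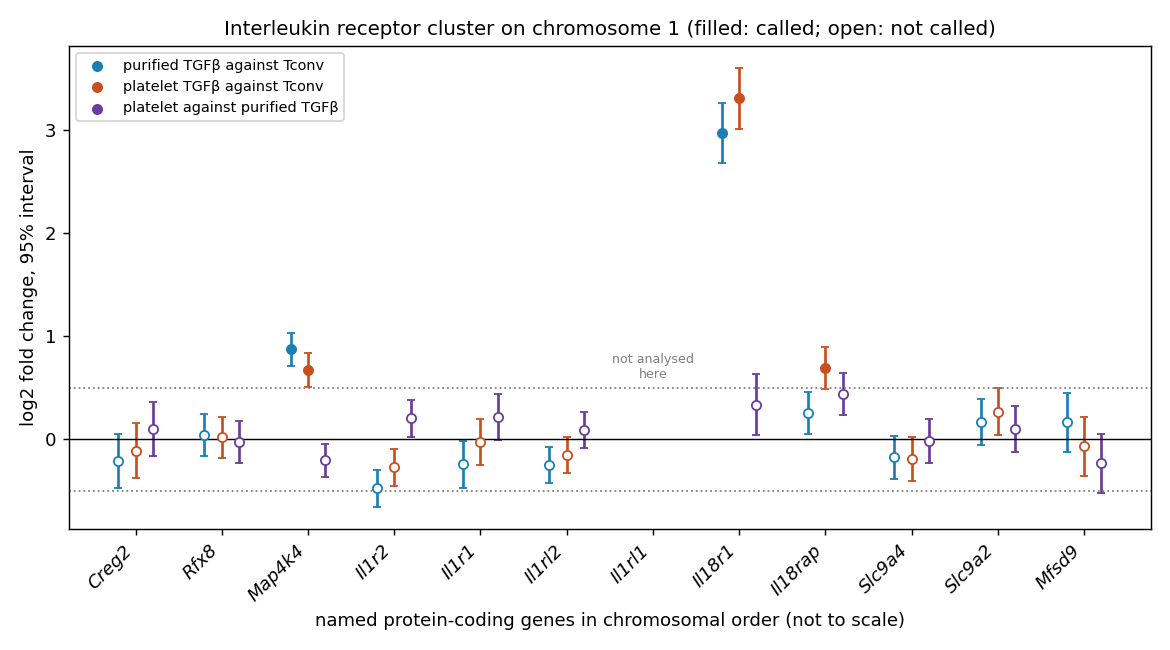
Log2 fold changes with 95% intervals in 3 comparisons for 11 of 12 named protein-coding genes in chromosomal order around the interleukin receptor cluster, not to scale; filled points were called. Il18r1 stands out at 2.97 and 3.31 against Tconv, beside Il18rap at 0.25 and 0.70 and flanking Slc9a4 at -0.18 and -0.19.

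The pathway genes around these receptors came from 3 lists of ligands, partner chains and signaling parts, 50 genes measured in all. The lists were also chosen with earlier results of these data known, so their counts are no independent test either. With purified TGFβ 11 were called higher than Tconv and 12 lower, beside 14.5% and 14.9% of all genes, and their median log2 change was -0.21 (all genes -0.17). With platelet TGFβ 16 were higher and 7 lower, beside 13.9% and 14.7%, with a median of -0.01 (all genes -0.16). Between the iTreg groups 8 were higher and 2 lower with platelet TGFβ, beside 1.54% and 2.57%, with a median of 0.08 (all genes 0.01).

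In the IL1 and IL18 list, 5 of 18 genes measured rose and 2 fell with purified TGFβ, where 14.5% of all genes rose and 14.9% fell. With platelet TGFβ 6 rose and 2 fell, where 13.9% and 14.7% of all genes did. Il1rap, the accessory chain of the IL1 receptor, read 5.00 to 5.25 over all arrays and was not called. Among the signaling parts downstream of MyD88, 3 rose. Traf6, an adaptor ligase, rose 3.86-fold and 2.53-fold, the kinase gene Map3k7 (TAK1) 3.80-fold and 2.92-fold, and its partner Tab2 2.16-fold and 2.10-fold, with purified and platelet TGFβ in that order. A dim Traf6 probe set was not called against Tconv (-0.09 and -0.08), nor was a dim Map3k7 one (0.44 and 0.26). The remaining probe sets of these 2 genes were called higher in both iTreg groups. TAK1 also serves the TGFβ receptor. Irak2, a kinase that joins MyD88, was 2.84-fold and 1.83-fold lower than in Tconv. Sigirr, a receptor that restrains IL1 and IL18 signals, was 2.88-fold and 2.49-fold lower.

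Between the iTreg groups 2 genes of this list were higher with platelet TGFβ and 2 lower, where 1.54% and 2.57% of all genes were called. Il1rn, which encodes the IL1 receptor antagonist, read 5.67, 5.53 and 5.20 in Tconv, 7.42, 7.55 and 7.41 with purified TGFβ, and 6.32, 6.09 and 6.49 with platelet TGFβ. The 3 groups did not overlap, and purified TGFβ was highest. Platelet lay 2.23-fold below purified TGFβ (log2 difference -1.16 ± 0.13, adjusted p = 2.71e-04), another Il1rn probe set was called there at -1.47, and the third was not (-0.24). Traf6 was lower by -0.61 ± 0.08 (adjusted p = 5.10e-04), and its other probe sets gave -0.73, called, and -0.44, -0.40 and 0.02, not called. Map3k7 was not called (-0.38), though another of its probe sets was (-0.51, adjusted p = 0.00175). The genes higher with platelet TGFβ were Irak2 (0.63 ± 0.10, adjusted p = 0.00274) and Il1a, which encodes IL1α (1.11 ± 0.20, adjusted p = 0.00616); Il1a is named after its values were seen.

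The IL6 family list had 4 rises and 1 fall among 17 with purified TGFβ, where 14.5% of all genes rose and 14.9% fell. With platelet TGFβ it had 5 rises and 1 fall, where 13.9% and 14.7% of all genes did. Adam10 and Adam17, the proteases that shed the IL6 receptor, rose 2.87-fold and 2.24-fold with purified TGFβ and 2.44-fold and 2.40-fold with platelet TGFβ; a dim Adam10 probe set was not called (-0.18 and -0.07). Osm, a cytokine that signals through gp130, rose 2.11-fold and 2.31-fold. Socs3, the feedback inhibitor of gp130, rose by 0.65 ± 0.09 and 1.06 ± 0.09. Stat3, the factor activated by IL6, was not called (0.47 and 0.02), nor were the IL27 receptor gene Il27ra (-0.37 and -0.21) and Jak2 (0.25 and 0.41); a dimmer Stat3 probe set was called higher with purified TGFβ at 0.63.

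Lif, another gp130 ligand, was the one gene of this list called between the iTreg groups, where 4.11% of all genes were called. It read 7.71, 7.68 and 7.81 in Tconv, 7.71, 7.85 and 7.84 with purified TGFβ, and 8.70, 8.72 and 8.60 with platelet TGFβ. Platelet arrays lay above all others (0.88 ± 0.08 against purified TGFβ, adjusted p = 5.69e-05), while a dimmer Lif probe set was not called (0.22). Socs3 differed by 0.42 ± 0.09 and Stat3 by -0.45 ± 0.08, both short of the fold cutoff (adjusted p = 0.0179 and 0.00850). The 2 other Socs3 probe sets were brighter _x_at sets. The brightest was called between the iTreg groups at 0.58 (adjusted p = 0.00228), and the other was not (0.48).

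The IL12 and IL23 list had 2 rises and 9 falls among 16 with purified TGFβ, where 14.5% of all genes rose and 14.9% fell. With platelet TGFβ it had 5 rises and 4 falls, where 13.9% and 14.7% did. Stat4, the factor that IL12 activates, read 9.47, 9.33 and 9.26 in Tconv, 7.45, 7.29 and 7.41 with purified TGFβ, and 8.23, 8.24 and 8.15 with platelet TGFβ. The groups stood in the order of Il12rb1 without overlap, and platelet exceeded purified TGFβ by 0.83 ± 0.08 (adjusted p = 1.30e-04). Tbx21, which encodes the Th1 factor T-bet, was 2.22-fold and 1.74-fold lower than in Tconv and differed by 0.36 ± 0.09 between the iTreg groups (adjusted p = 0.0404, not called). Ebi3, a subunit of IL27 and IL35, was 2.82-fold and 2.70-fold lower. Ifngr1, which binds interferon gamma, rose 2.46-fold and 2.13-fold and the transcription factor gene Runx3 2.43-fold and 2.44-fold. The other, dimmer Runx3 probe set went the other way, at -0.28 (adjusted p = 0.0105) and -0.38 (adjusted p = 0.00155), and was not called.

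Ifng, which encodes interferon gamma, read 5.95, 5.95 and 5.74 in Tconv, 5.71, 5.29 and 5.75 with purified TGFβ, and 10.49, 10.47 and 10.39 with platelet TGFβ. Tconv and purified TGFβ overlapped far below the platelet arrays. Platelet exceeded purified TGFβ 29.2-fold (log2 difference 4.87 ± 0.12, adjusted p = 3.30e-09). The cause of the Ifng difference was not tested. Over all genes, 1.54% were called higher by limma with platelet than with purified TGFβ and 2.57% lower. Of this list 5 genes were called higher and 0 lower (7 and 1 at an unadjusted p under 0.05, where all genes were not counted). Beside Ifng and Stat4 these were Gadd45g (3.63-fold), Gadd45b (2.65-fold), stress response genes known to support IL12 and IL18 signals, and the T-box factor gene Eomes (2.61-fold), which are named after their values were seen.

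**Figure D5:**
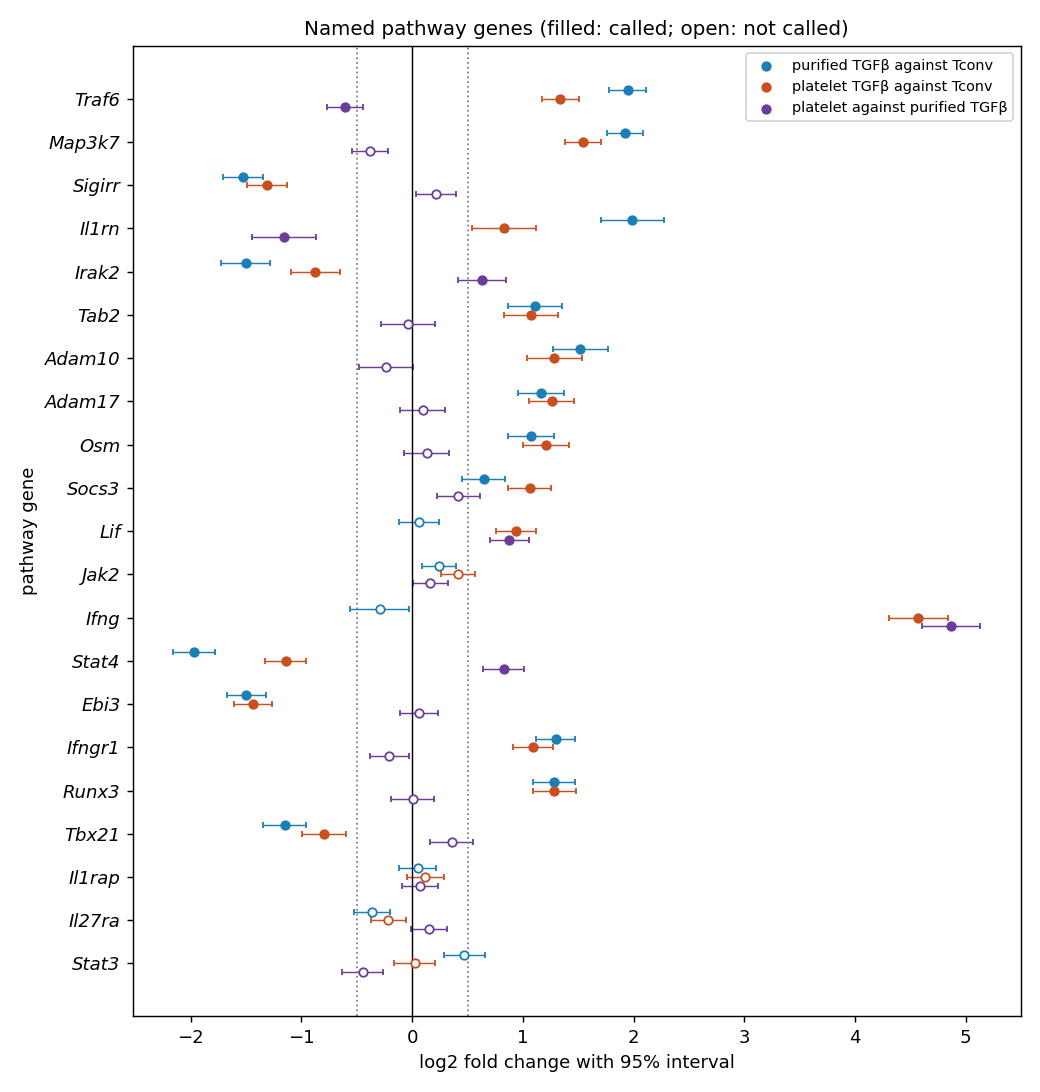
Log2 fold changes with 95% intervals in 3 comparisons for the 21 named pathway genes; filled points were called and dotted lines mark the fold cutoff. Ifng lies at 4.57 and 4.87 in the comparisons of platelet TGFβ, and Stat4 at -1.97, -1.14 and 0.83.

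Markers of other cells were read beside the difference between the iTreg groups. Of the 5 CD8 and NK cell markers Klrd1 was lower with platelet TGFβ (-1.27) and the other 4 were not called. None of 9 myeloid and dendritic markers was called by limma in any comparison; at an unadjusted p under 0.05, 4 were lower than Tconv in each iTreg group and 0 differed between these groups. Their summed linear level was 153 to 183 in Tconv, 130 to 149 with purified and 136 to 145 with platelet TGFβ. Of 6 platelet markers Itgb3, an integrin gene, was higher with platelet than purified TGFβ (1.75), while the platelet chemokine genes Pf4 and Ppbp were not called (0.25 each); these 3 were higher at an unadjusted p under 0.05, and 0 of the list were lower. Against Tconv, Itgb3 and Itga2b were lower in both iTreg groups, and the summed level of this list was 334 to 344 in Tconv, 145 to 165 with purified and 188 to 207 with platelet TGFβ. The mast cell and innate lymphoid list had 1 of 7 called between the iTreg groups, Rora, lower with platelet TGFβ (-0.70). Against Tconv, Il13 was lower in both iTreg groups (-1.42 and -1.32) and Rora was higher with purified TGFβ (1.20). This list summed to 119 to 124 in Tconv, 101 to 119 with purified and 92.4 to 96.2 with platelet TGFβ. Of 6 B cell markers 0 were called by limma or had an unadjusted p under 0.05 between the iTreg groups, and their sum was 168 to 187 in Tconv, 111 to 126 with purified and 108 to 124 with platelet TGFβ. Against Tconv the B cell receptor gene Cd79b was lower in both iTreg groups (-1.46 and -1.65), and 4 of the 6 with purified and 2 with platelet TGFβ were lower at an unadjusted p under 0.05. All genes were not counted at an unadjusted p under 0.05, so such counts of markers have no background share beside them. Of all genes, the arrays of 41.6% with purified and 38.4% with platelet TGFβ lay wholly below Tconv. The part of other cells in the receptor differences was not tested.

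For each receptor gene called in any comparison, the genes most like it over the 9 arrays were found by Pearson correlation among 6088 genes whose group means spanned at least 0.5. These values describe 9 arrays that share 3 group means, so they mostly track the order of the groups. Il12rb1 was followed most closely by Sac3d1 (r = 0.998), Phlda3 (0.997) and Utp25 (0.996), all highest in Tconv and lowest with purified TGFβ. Il18r1 was nearest to Dcp2 (0.998), Ranbp6 (0.997) and Gxylt1 (0.997). For Il18rap they were Wdr78 (0.977), Nr4a3 (0.976), a nuclear receptor gene induced by T cell receptor signals, and Cdk17 (0.972), and for Il12rb2 Ubxn8 (0.984), B4galt5 (0.979) and Tma16 (0.961). Il6ra lay nearest Zfp267 (0.989), Ktn1 (0.989) and Mospd2 (0.985), and Il6st nearest Npc1 (0.981), the IL17 receptor gene Il17ra (0.981) and Igf2r (0.979).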

How the data were processed

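The authors deposited log2 expression values, 1 per probe set and array, summarized by RMA, which corrects background, normalizes between arrays and compresses low values. The series' design text gives Affymetrix Expression Console as the program. It also names ANOVA in Partek Genomics Suite and the cutoffs used here, and Partek also stands in the submitters' processing notes. The genome build was not given in the sources used here.

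Leaving out 64 Affymetrix controls, 45037 probe sets entered the tests. Symbols came from the platform annotation: 34945 probe sets had 1, 932 several and 9160 none. Groups were fitted in 1 limma model over 9 arrays (limma 3.58.1, R 4.3.3), with two-sided contrasts and Benjamini-Hochberg adjustment over all probe sets. The fit was tested on simulated data. An exact test of 3 against 3 arrays cannot reach a p under 0.1. The number of arrays limits precision.

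Named genes were all receptor genes, up to 6 genes of each pathway list with the lowest adjusted p, 8 fixed pathway genes (Il23r was not analysed here), chromosomal neighbours, like genes and checks. Of the lists, 18 of 22 IL1 and IL18, 17 of 20 IL6 family, 16 of 18 IL12 and IL23, 7 of 8 T cell, 6 of 7 B cell, 9 of 9 myeloid, 6 of 7 platelet, 5 of 6 CD8 and NK and 7 of 8 mast cell and innate lymphoid genes were measured. Members and lists were chosen with earlier results of these data known. Alternatives were 2 scalings, a filter on the dimmest 40% of probe sets, trended robust variances, an unmoderated ANOVA contrast, fits on the groups compared, the replicate number as a block, averaged probe sets, omission of single arrays, and cutoffs that were stricter or had no fold limit. Figures used Python 3.11.15 and matplotlib 3.10.9.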

Additional observations from a re-analysis of the deposited data

How the results depend on the processing

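Counts of called genes moved mainly with the cutoff. Only counts that moved clearly from those at the main cutoffs are listed next, so a direction left out is not a count of 0. At an adjusted p under 0.05 and 2-fold, 1 receptor gene was higher with purified TGFβ against Tconv, 1 higher and 0 lower with platelet TGFβ, and 1 higher and 0 lower between the iTreg groups. Il12rb1 stayed lower with purified TGFβ at that cutoff. Pathway genes at that cutoff were 7 lower with purified TGFβ, 3 lower with platelet TGFβ, and 5 higher and 1 lower between the iTreg groups. Pathway genes higher than Tconv also remained, among them Traf6, Map3k7 and Adam10 in both iTreg groups. With no fold cutoff, 4 receptor genes were lower with purified and 2 with platelet TGFβ, and pathway genes lower numbered 23, 19 and 4 in the 3 comparisons. All genes were not counted at these other cutoffs, so these counts have no background share beside them. Averaging the probe sets of a gene left 1 pathway gene lower between the iTreg groups. Leaving out each array gave 1 to 2 receptor genes lower with purified TGFβ, as given for Il1r2. Il1r1 with platelet TGFβ against Tconv, never called, changed sign to 0.063 under quantile normalization, 0.031 with centred medians and 0.012 with averaged probe sets, and ranged from -0.088 to 0.025 without single arrays. The call of Il6ra with platelet TGFβ was lost under quantile normalization (0.48) and with averaged probe sets (0.49), and Il18rap was called between the iTreg groups at 0.70 with averaged probe sets. The cause of these moves was not tested beyond the cutoffs themselves. All 8 receptor genes passed the filter on dim probe sets. Same-numbered arrays did not deviate together throughout (r from -0.12 to 0.26), though 7 of 9 arrays were best with their own number. Between the iTreg groups the same numbers gave r of 0.19, 0.26 and 0.09, and other numbers -0.24 to 0.05. Whether the numbers mark pairs was therefore not settled, and they were not taken as pairs. With the replicate block the same 3 and 1, 4 and 1, and 2 and 1 receptor genes were higher and lower.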
